A study of Mus musculus with 6 samples.

Results

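The genes described here are the nuclear-encoded subunits of the oxidative phosphorylation system, together with cytochrome c. They were taken by name from the deposited count table: names of the Ndufa, Ndufb, Ndufc, Ndufs and Ndufv series, Sdha to Sdhd, names starting with Uqcr, the Cox4 to Cox8 and Atp5 series, Cyc1 and Cycs. The rule found 87 of the 33924 gene names in the table, of which 36 belong to complex I, 4 to complex II, 9 to complex III, 18 to complex IV and 16 to complex V. Cytochrome c (Cycs) is 1 more, and 3 fit the rule by name only: Cox4nb, now called Emc8, encodes a subunit of the endoplasmic reticulum membrane protein complex, and Atp5s and Atp5sl are not counted with the structural subunits here. Bulk RNA sequencing was done on lung of FVB/NJ mice, an inbred albino strain. Tumour libraries (replicates 1, 2 and 4) came from urethane-induced lung tumours of mice given the carcinogen urethane at 1 g per kg into the peritoneum, and control libraries (replicates 1, 2 and 3) from normal lung; the treatment label names saline as the other injection. All tissue was harvested at 6 months. The labels do not say how tumour was separated from lung, or whether each library came from its own animal, so p-values measure the spread between these libraries, which may be partly technical.

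Oxidative phosphorylation is carried out in the inner mitochondrial membrane. Complexes I and II pass electrons from NADH and succinate to ubiquinone, complex III passes them to cytochrome c, complex IV hands them to oxygen, and complex V, the ATP synthase, uses the resulting proton gradient to make ATP. Most subunits are encoded in the nucleus and the remainder in the mitochondrial genome. Several subunits of complex IV have tissue isoforms: Cox6a2, Cox7a1 and Cox8b are the forms of heart and skeletal muscle in rodents, Cox4i2 is a form found mainly in lung, and Cox6b2, Cox7b2 and Cox8c are forms of the testis.

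Counted reads per library were 58545354, 62336537 and 48509129 in tumours and 38996532, 59037341 and 46025182 in controls. The members took 0.399% to 0.414% of all reads in tumours and 0.291% to 0.355% in controls, and reads of the mitochondrial chromosome took 21.8% to 26.0% in tumours and 18.8% to 26.7% in controls. Most of the mitochondrial reads were rRNA. Levels below are CPM, read counts scaled to library size with TMM factors, listed in the order of the replicate numbers. Tumour replicate 2 stood apart in sex-linked genes: Xist reached 3359 CPM there, against no more than 32.9 CPM elsewhere, and 4 Y-linked genes stayed at or under 0.215 CPM, where the remaining libraries held 37.6 CPM or more. Of the alveolar type 2 cell markers, 9 of 10 were higher in tumours, and all 10 endothelial, all 10 ciliated and all 6 club cell markers were lower. In bulk tissue, fewer cells of a type and less RNA per cell cannot be told apart.

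Most members were slightly higher in tumours and 15 passed the test, while the 3 muscle isoforms of complex IV were much lower. Of the 84 members that passed the low count filter, 15 were higher and 3 lower in tumours (edgeR quasi-likelihood F test with 3 libraries per group, adjusted p under 0.05 after Benjamini-Hochberg), and 66 did not pass. Those are 17.9% higher and 3.57% lower, where over all 20001 genes tested 18.1% were called higher and 23.8% lower, 42% in all. The share of higher members is thus near that of all genes. The median log2 fold change of the 84 members was 0.25, against 0.01 over all genes tested, and 65 of the 84 had a positive value. CPM values of the tumours lay above all controls for 21 members (26.1% of all genes tested) and below all controls for 4 members (29.9% of all genes tested). Cox7b2, Cox8c and Atp5l2 had too few reads to be tested. Without tumour replicate 2, which stood apart in sex-linked genes, 11 members were higher and 3 lower.

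**Figure D1:**
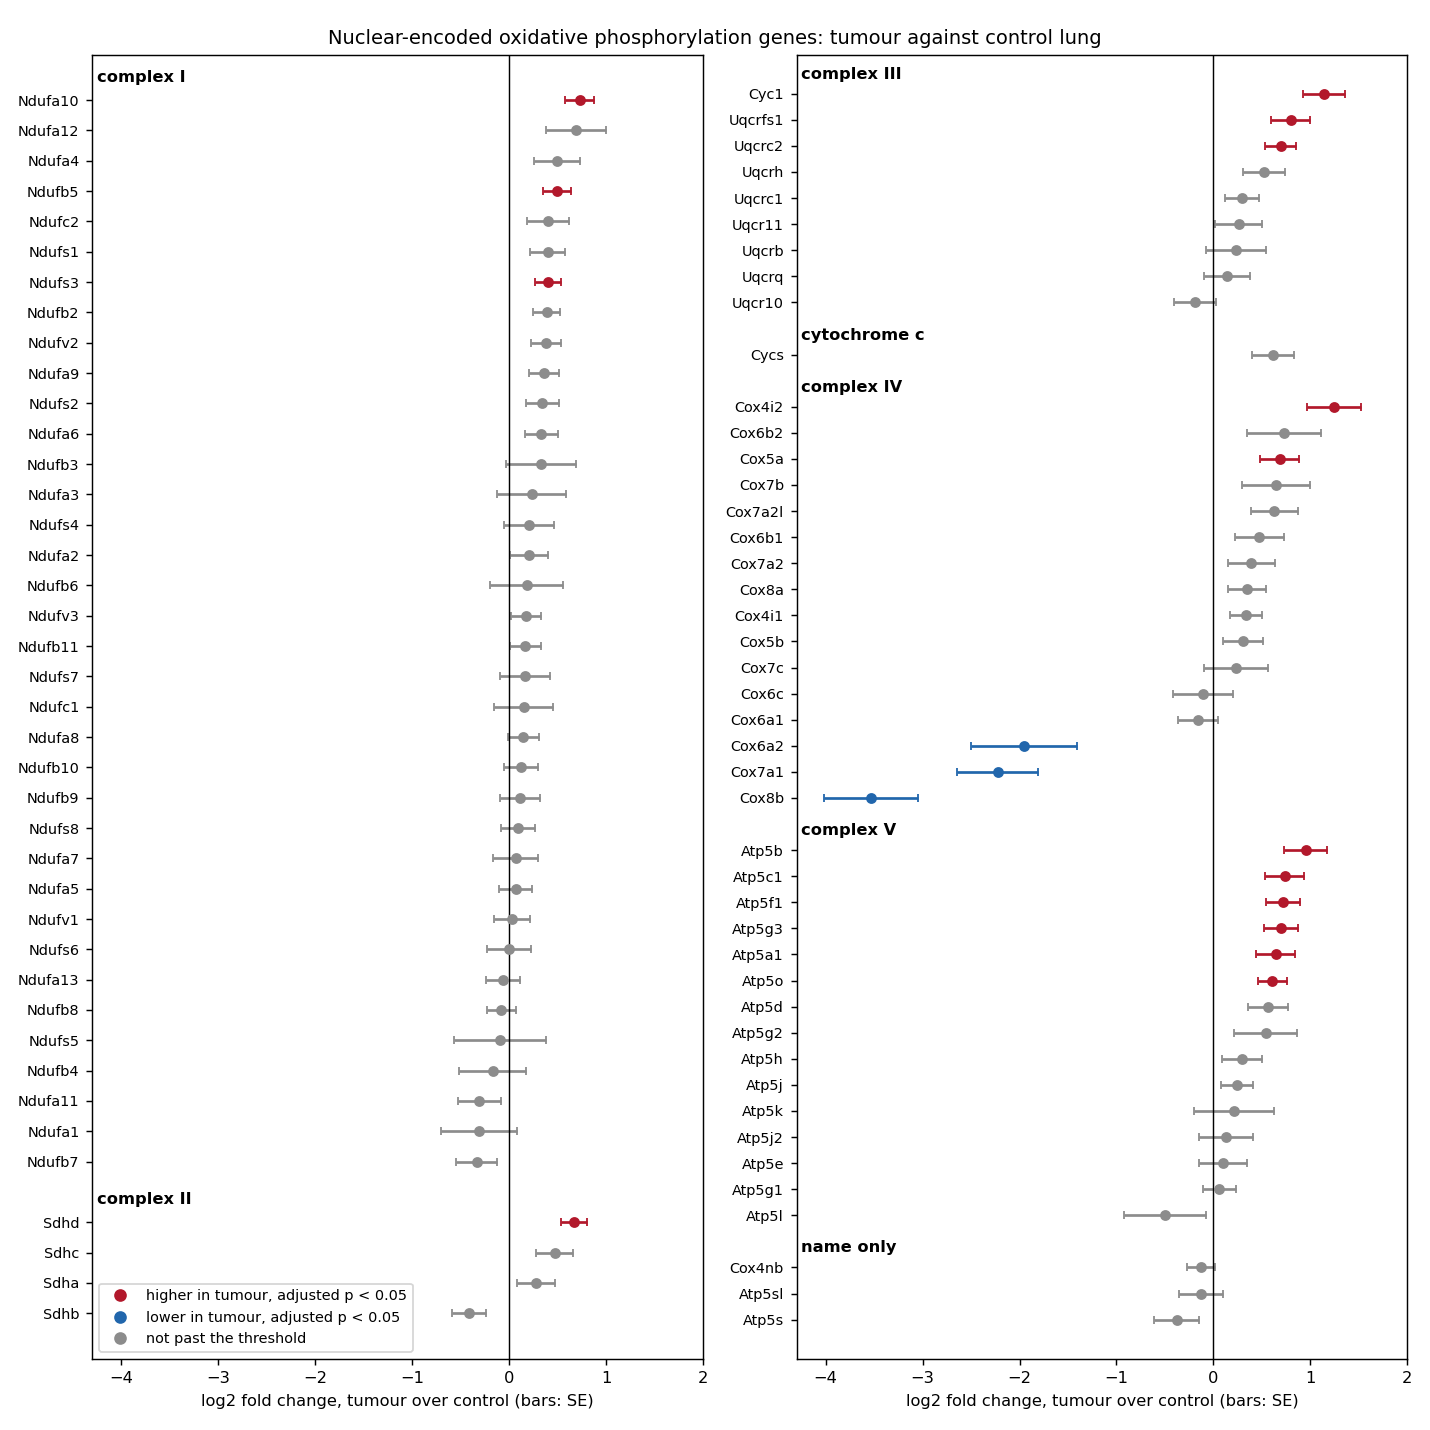
Log2 fold change of tumour over control for the 84 members tested, by complex, with its standard error as a bar; red points are higher and blue points lower at an edgeR adjusted p under 0.05, and grey points did not pass. Complex V and complex III hold 9 of the 15 red points, and the 3 blue points are Cox6a2, Cox7a1 and Cox8b, the lowest at -3.53.

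Among the 5 complexes, complex V had the highest share of called members, with 40% higher, where 18.1% of all genes tested were. Of its 15 tested members 6 were higher, with a median log2 fold change of 0.54, and the summed level of the complex was 1590, 1673 and 1532 CPM in tumours, against 1101, 1121 and 892 CPM in controls. All tumours lay above all controls. Atp5b encodes the beta subunit of the F1 head, which carries the catalytic sites. It had 517, 433 and 362 CPM in tumours, against 197, 287 and 194 CPM in controls. Every tumour lay above every control, with a log2 fold change of 0.95 ± 0.22 (SE, edgeR adjusted p = 0.00877). Atp5c1, the gamma subunit that turns inside the head, had 166, 135 and 136 CPM in tumours, against 102, 95.8 and 64.7 CPM in controls, a log2 fold change of 0.73 ± 0.20 (edgeR adjusted p = 0.0195). Atp5a1, the alpha subunit, had 313, 406 and 347 CPM in tumours, against 196, 285 and 203 CPM in controls. Its log2 fold change was 0.64 ± 0.20 (edgeR adjusted p = 0.0323). The Atp5a1 call was lost without tumour replicate 2, without tumour replicate 4, without control replicate 1 and without control replicate 3, at adjusted p of 0.0902, 0.0674, 0.109 and 0.0916. The other head subunits did not pass: the log2 fold change of Atp5d (delta) was 0.57 (edgeR adjusted p = 0.0599), and that of Atp5e (epsilon) 0.10 (edgeR adjusted p = 0.782).

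In the stalk and the membrane ring of complex V, 3 of 7 members were higher, where 18.1% of all genes tested were. Atp5f1, subunit b of the peripheral stalk that holds the head still, had 115.5, 153 and 151 CPM in tumours, against 91.6, 91.4 and 71.8 CPM in controls, a log2 fold change of 0.72 ± 0.17 (edgeR adjusted p = 0.0111). Atp5o, which joins the stalk to the head, had 72.5, 65.4 and 61.7 CPM in tumours and 45.2, 48.2 and 37.8 CPM in controls (0.61 ± 0.15, edgeR adjusted p = 0.0122). The groups did not overlap for either gene, but 44.0% of the Atp5o exon bases lie inside exons of other names and reads there were counted for each name. Atp5g1, Atp5g2 and Atp5g3 encode the same mature ring protein, subunit c, from different genes. Atp5g3 had 68.6, 77.7 and 84.5 CPM in tumours, against 57.9, 42.5 and 41.6 CPM in controls, and was the ring gene that passed (0.70 ± 0.18, edgeR adjusted p = 0.0129). Without control replicate 2 its adjusted p was 0.0618, and without control replicate 3 it was 0.0584. Atp5g1 had 22.3, 27.8 and 22.8 CPM in tumours, inside the range of 19.9 to 25.6 CPM in controls but for replicate 2, with a log2 fold change of 0.06 ± 0.17 (edgeR adjusted p = 0.797). Atp5g2 had 31.5, 17.0 and 12.8 CPM in tumours, where replicate 1 stood apart, and 16.4, 14.2 and 11.6 CPM in controls, with a log2 fold change of 0.54 ± 0.33 (edgeR adjusted p = 0.219).

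The remaining membrane subunits of complex V were spread by library more than by group. Atp5k, subunit e, had 23.5, 48.8 and 52.0 CPM in tumours, against 58.1, 21.9 and 27.1 CPM in controls. Control replicate 1 was the highest of all 6 libraries and tumour replicate 1 the lowest tumour. Atp5j2 (subunit f) and Atp5l (subunit g) also had their highest value in control replicate 1, at 72.7 and 10.9 CPM. Of these 3 genes, 0 passed in edgeR, DESeq2 or limma-voom, and edgeR gave 0 of them an unadjusted p under 0.05. Atp5h and Atp5j, both of the peripheral stalk, had log2 fold changes of 0.30 and 0.24 and did not pass.

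In complex III both nuclear-encoded subunits that carry electrons and 1 of the core proteins rose, 3 of 9 members in all (33.3%, against 18.1% of all genes tested). Cyc1, cytochrome c1, had 64.7, 43.5 and 37.0 CPM in tumours, against 22.0, 20.8 and 23.0 CPM in controls. It was the member with the smallest adjusted p among those higher in tumours, with a log2 fold change of 1.14 ± 0.22 (edgeR adjusted p = 0.00341). The gene lies at chr15:76173953-76176364 on the plus strand in mm9, the build of the deposited table. Uqcrfs1, the Rieske iron-sulphur protein, had 41.5, 48.7 and 51.3 CPM in tumours, against 28.0, 33.1 and 20.3 CPM in controls, a log2 fold change of 0.80 ± 0.20 (edgeR adjusted p = 0.0132). For both genes the groups were apart. Of the core proteins, Uqcrc2 had 129, 108 and 108 CPM in tumours and 69.1, 81.9 and 61.8 CPM in controls (0.70 ± 0.16, edgeR adjusted p = 0.00869), while Uqcrc1 did not pass (0.29 ± 0.17, edgeR adjusted p = 0.211). The 5 small subunits, Uqcrb, Uqcrh, Uqcrq, Uqcr10 and Uqcr11, lay between -0.19 and 0.52 and did not pass, nor did they in DESeq2 or limma-voom, and 1 of them had an unadjusted p under 0.05 in edgeR. Summed over complex III, tumours had 451, 487 and 447 CPM and controls 358, 320 and 292 CPM.

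Cycs, the soluble carrier between complexes III and IV, had 29.8, 36.9 and 37.1 CPM in tumours, against 29.8, 20.1 and 17.9 CPM in controls. Its log2 fold change of 0.61 ± 0.22 just missed the threshold (edgeR adjusted p = 0.0517). Control replicate 1 equalled the lowest tumour, and without it the adjusted p was 0.0127. Of the Cycs transcript, 31.8% of 32-base words also occur in other genes, so its count is uncertain.

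Complex II had 1 of its 4 members higher in tumours (25%, against 18.1% of all genes tested). Sdhd, the small membrane anchor, had 65.8, 63.6 and 59.6 CPM in tumours, against 38.6, 43.4 and 36.8 CPM in controls, a log2 fold change of 0.67 ± 0.14 (edgeR adjusted p = 0.00472). The groups did not overlap and each was narrow. Sdhc, the other anchor, had 37.2, 59.6 and 54.0 CPM in tumours, against 38.2, 37.5 and 33.1 CPM in controls, and did not pass (0.47 ± 0.19, edgeR adjusted p = 0.0843). Tumour replicate 1 lay among the controls. Sdhb, the iron-sulphur subunit of the head, was the sole member outside complex IV with all tumours below all controls: 27.4, 34.5 and 27.1 CPM in tumours, against 36.0, 47.3 and 35.4 CPM in controls. Its log2 fold change of -0.41 ± 0.18 did not pass (edgeR adjusted p = 0.0965). The value of Sdha, the flavoprotein, was 0.28 (edgeR adjusted p = 0.289).

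Complex I, the largest complex, had 3 of 36 members higher (8.33%, against 18.1% of all genes tested) and a median log2 fold change of 0.17. Ndufa10, an accessory subunit of the membrane arm, had 47.4, 46.6 and 45.5 CPM in tumours, against 26.1, 32.4 and 25.6 CPM in controls. The tumours were close together and apart from the controls, with a log2 fold change of 0.73 ± 0.15 (edgeR adjusted p = 0.00476). Ndufb5, a further accessory subunit, had 33.9, 39.6 and 35.8 CPM in tumours, against 26.2, 28.2 and 23.1 CPM in controls (0.49 ± 0.15, edgeR adjusted p = 0.0274). Ndufs3, a core subunit of the arm that leads electrons to ubiquinone, had 31.0, 31.2 and 30.9 CPM in tumours, against 23.5, 24.7 and 22.3 CPM in controls (0.40 ± 0.13, edgeR adjusted p = 0.0413). Both calls held only when tumour replicate 1 was the library left out, at adjusted p of 0.00941 for Ndufb5 and 0.0217 for Ndufs3. Without tumour replicate 2, tumour replicate 4, control replicate 1, control replicate 2 or control replicate 3, those of Ndufb5 were 0.0898, 0.0613, 0.0724, 0.0502 and 0.0715, and those of Ndufs3 were 0.101, 0.0929, 0.105, 0.0824 and 0.0873. Of the Ndufs3 transcript, 54.0% of 32-base words occur in other genes.

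The 7 core subunits of complex I, which hold the flavin and the iron-sulphur clusters, all had positive log2 fold changes, between 0.03 (Ndufv1) and 0.40 (Ndufs1). Of these, 1 passed (14.3%), where 18.1% of all genes tested were called higher. Ndufs1, the subunit with the most clusters, had 64.9, 82.4 and 78.2 CPM in tumours, against 52.7, 69.5 and 48.7 CPM in controls, and did not pass (edgeR adjusted p = 0.11). Of the 29 accessory subunits 2 passed (6.90%), and the other 27 ranged from -0.34 (Ndufb7) to 0.69 (Ndufa12). Ndufa6, Ndufa9, Ndufb2 and Ndufv2 had all tumours above all controls without passing, with log2 fold changes of 0.33, 0.36, 0.39 and 0.38. Ndufa4, which carries a complex I name but is now counted with complex IV, had 67.0, 97.2 and 97.5 CPM in tumours and 82.0, 52.1 and 51.7 CPM in controls (edgeR adjusted p = 0.127). Ndufs5 was listed at 0.434 to 0.588 CPM in tumours and 0.243 to 0.706 CPM in controls, and 35.8% of its 32-base words occur in another gene, so its level is uncertain. Among complexes I, II, III and V, 0 members were called lower by edgeR, DESeq2 or limma-voom, and Sdhb alone had an unadjusted p under 0.05 in edgeR with a negative value.

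**Figure D2:**
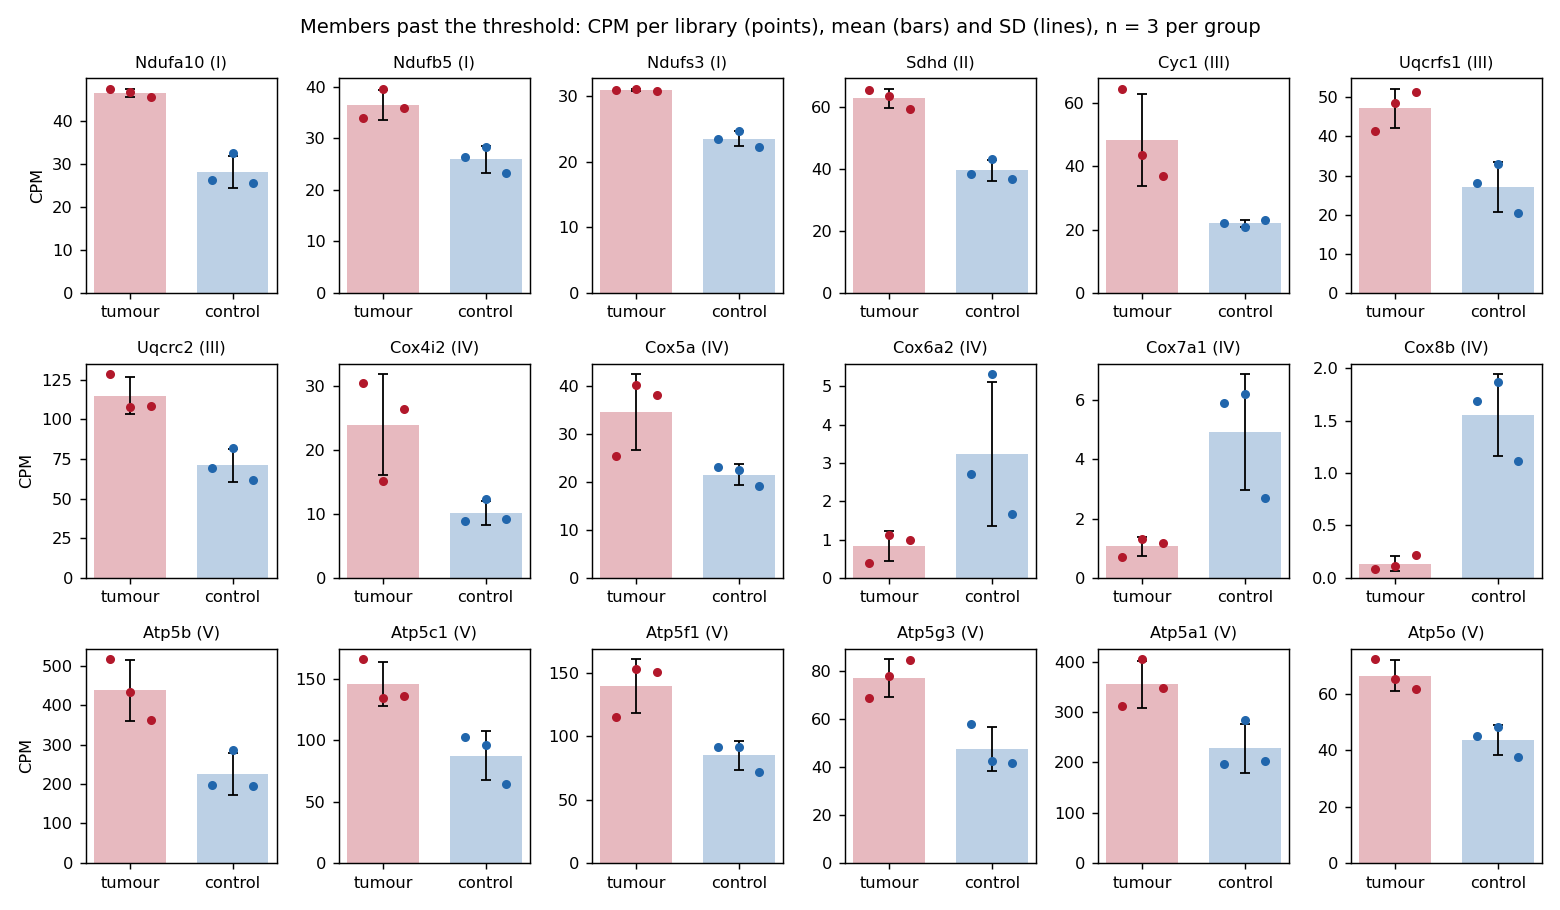
CPM per library (points), group mean (bars) and SD (lines) for the 18 members past the threshold, tumours on the left and controls on the right of each panel. Tumours lie above all controls for the 15 higher members and below all controls for Cox6a2, Cox7a1 and Cox8b; the tumour points of Cox4i2 spread between 15.1 and 30.4 CPM.

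Complex IV, which reduces oxygen, held members called in opposite directions. Of its 16 tested members 2 were higher (12.5%) and 3 lower (18.75%), where 18.1% and 23.8% of all genes tested were. Cox4i2, the lung form of the subunit that binds adenine nucleotides, had 30.4, 15.1 and 26.4 CPM in tumours, against 8.94, 12.3 and 9.11 CPM in controls. All tumours lay above all controls, but tumour replicate 2 was close to control replicate 2. The log2 fold change of 1.24 ± 0.28 was the largest rise of any member (edgeR adjusted p = 0.0078), and the adjusted p ranged from 0.00125 to 0.0383 over the 6 fits that each left out a library. Cox4i2 lies at chr2:152579909-152590773 on the plus strand in mm9. Its more abundant partner Cox4i1 had 100.2, 109.5 and 96.1 CPM in tumours, against 92.7, 84.5 and 65.0 CPM in controls, and did not pass (0.34 ± 0.17, edgeR adjusted p = 0.143). Per exon length, Cox4i2 made up 20.7%, 10.6% and 19.1% of Cox4 in tumours, against 7.67%, 11.2% and 10.8% in controls. The shares overlapped (exact two-sided permutation test, p = 0.3, adjusted over 6 isoform pairs 0.36; 3 against 3 libraries cannot go below 0.1).

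Cox4i2 is also known as a gene of pericytes, the mural cells of capillaries. Of the 11 pericyte and smooth muscle markers, 10 were lower in tumours, with summed levels of 305 to 388 CPM in tumours and 676 to 972 CPM in controls. The remaining marker, Rgs5, a regulator of G protein signalling typical of pericytes, had 125, 110 and 108 CPM in tumours, against 7.82, 7.93 and 9.07 CPM in controls, a log2 fold change of 3.79 ± 0.16 (edgeR adjusted p = 4.97e-06). Pdgfrb, Notch3 and Higd1b, further markers of pericytes, had log2 fold changes of -1.10, -2.15 and -2.51, and each passed. The part of these cells in the Cox4i2 result was not tested.

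Cox5a, a subunit on the matrix side, was the second member of complex IV to pass. It had 25.5, 40.3 and 38.2 CPM in tumours, against 23.2, 22.5 and 19.1 CPM in controls, a log2 fold change of 0.68 ± 0.20 (edgeR adjusted p = 0.0267). Tumour replicate 1 lay just above the highest control. The Cox5a call held only without tumour replicate 1 (adjusted p = 0.00104). Without tumour replicate 2 it was 0.0802, without tumour replicate 4 it was 0.0775, and without control replicates 1, 2 and 3 in turn it was 0.0565, 0.0704 and 0.0901. Of the Cox5a exon bases, 38.7% lie inside exons of another name.

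The 3 heart and muscle isoforms had the lowest log2 fold changes of all members. Cox8b had 0.0817, 0.108 and 0.217 CPM in tumours, against 1.68, 1.87 and 1.12 CPM in controls, a log2 fold change of -3.53 ± 0.48 (edgeR adjusted p = 0.000643). Those levels rest on 21 reads in the 3 tumours together and 240 reads in the 3 controls. Cox7a1 had 0.703, 1.29 and 1.17 CPM in tumours, against 5.89, 6.21 and 2.68 CPM in controls, a log2 fold change of -2.22 ± 0.42 (edgeR adjusted p = 0.00331). Cox6a2 had 0.392, 1.13 and 0.998 CPM in tumours, against 2.72, 5.33 and 1.66 CPM in controls, a log2 fold change of -1.95 ± 0.55 (edgeR adjusted p = 0.0215). The groups did not overlap for any of the 3. Cox8b and Cox7a1 also passed a test against a 2-fold change. The call of Cox6a2 was lost without control replicate 2, at a log2 fold change of -1.38 and an adjusted p = 0.0949. In mm9, all 3 lie on chromosome 7, Cox8b at chr7:148084842-148086345 (minus strand), Cox7a1 at chr7:30969190-30971047 (plus strand) and Cox6a2 at chr7:135348950-135349880 (minus strand).

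Markers of cardiac muscle were called lower too. All 12 were lower in tumours, with summed levels of 34.6, 55.6 and 54.3 CPM in tumours, against 357, 1712 and 605 CPM in controls. Control replicate 2 was the highest for the markers and for Cox8b, Cox7a1 and Cox6a2 alike. Control replicate 1 was the lowest control for the summed markers and lay above control replicate 3 for all 3 isoforms. Cox8b had 1.68 and 1.12 CPM in these 2 controls, Cox7a1 5.89 and 2.68 CPM, and Cox6a2 2.72 and 1.66 CPM. The 3 isoforms are short, with 362, 364 and 658 exon bases for Cox8b, Cox7a1 and Cox6a2. Control replicate 1 was the highest control in 26 of the 32 tested members of up to 1000 bases. The part of this library pattern in the order of the controls was not tested. In tumours Sln, the sarcolipin gene, was at 0 in all 3 libraries, and Actc1 and Myl7, cardiac actin and atrial myosin light chain, were at most 0.0359 CPM. Of the 10 skeletal muscle markers 5 were tested and 3 were lower, with summed levels of 2.71 to 4.84 CPM in tumours and 7.50 to 13.4 CPM in controls; Myh4, Pvalb and Myh2 were at 0 in tumours. Of the 10 adipocyte markers, which matter because Cox7a1 and Cox8b are also genes of brown fat, 3 were tested, with 1 higher (Fabp4) and 1 lower (Cidec), and summed levels of 9.89 to 21.4 CPM in tumours and 9.01 to 12.8 CPM in controls. Cidea, Adipoq, Lep, Elovl3 and Cfd were at 0 in tumours and Ucp1 at 0.0406 to 0.0912 CPM in controls. The skeletal muscle and adipocyte markers that were not tested had too few reads in either group for the low count filter. No change is read from a value of 0 among those markers. The part of any of these cells in the isoform result was not tested.

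The partners of the muscle isoforms, which serve most other tissues, did not pass. Cox8a had 38.1, 55.1 and 49.7 CPM in tumours, against 44.8, 36.5 and 30.9 CPM in controls, with a log2 fold change of 0.35 ± 0.20 (edgeR adjusted p = 0.192). Cox7a2 had 54.0, 77.5 and 84.7 CPM in tumours, against 72.0, 41.5 and 51.4 CPM in controls (0.39 ± 0.25, edgeR adjusted p = 0.238). Cox6a1 had 24.1, 33.3 and 30.2 CPM in tumours, against 40.2, 31.8 and 25.8 CPM in controls (-0.16 ± 0.21, edgeR adjusted p = 0.571). For all 3 the groups overlapped and control replicate 1 was the highest control. Cox7a2l, a relative of Cox7a2 that ties complexes III and IV into supercomplexes, had 100.3, 60.9 and 51.8 CPM in tumours, against 49.4, 46.7 and 41.7 CPM in controls. All tumours lay above all controls, led by tumour replicate 1, yet it did not pass (0.63 ± 0.24, edgeR adjusted p = 0.0711). Of the common subunits without a tissue form, Cox5b, Cox6c and Cox7c had log2 fold changes of 0.31, -0.11 and 0.23 and did not pass. The 3 genes that fit the rule by name only, Cox4nb, Atp5s and Atp5sl, had values of -0.13, -0.38 and -0.13, and edgeR, DESeq2 and limma-voom called 0 of them (0 with an unadjusted p under 0.05).

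As shares of their subunit per exon length, the muscle isoforms were minor in both groups. Cox7a1 was 2.63%, 3.34% and 2.78% of Cox7a1 and its partner in tumours, against 14.5%, 23.7% and 9.75% in controls. Cox6a2 was 1.71%, 3.50% and 3.41% of Cox6a in tumours, against 6.72%, 15.2% and 6.45% in controls. Cox8b was 0.322%, 0.293% and 0.653% of Cox8 in tumours, against 5.36%, 7.15% and 5.16% in controls. The 3 shares did not overlap between groups, and each reached the smallest p that 3 against 3 libraries allow (exact two-sided permutation test, p = 0.1, adjusted over 6 pairs 0.15). The difference of the Cox6a2 share was -6.58 percentage points, and -3.71 without control replicate 2. That of Cox7a1 was -13.1 percentage points per exon length and -7.08 in raw counts, with 364 exon bases against 754 in its partner. Atp5g1 was 5.37%, 8.39% and 7.34% of the subunit c genes in tumours, against 9.15%, 10.7% and 9.90% in controls, with p = 0.1 in the same exact permutation test and an adjusted 0.15. Its difference was -2.87 points per exon length and -7.67 points in raw counts.

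**Figure D3:**
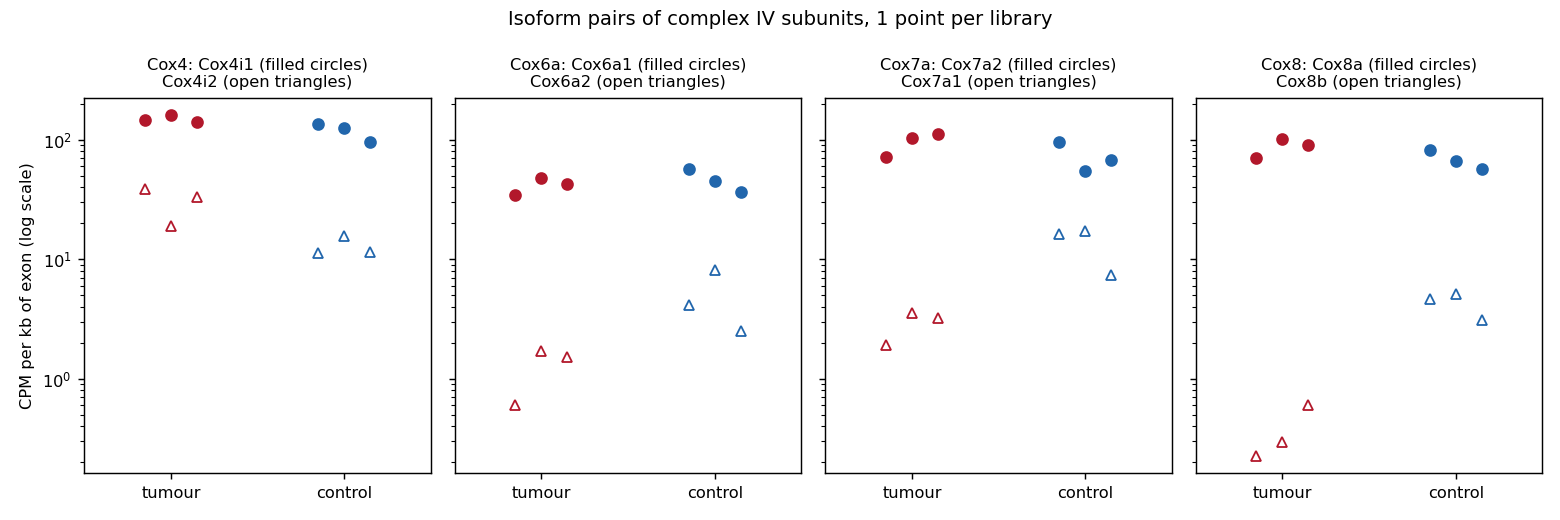
CPM per kb of exon in each library, on a log axis, for 4 isoform pairs of complex IV, tumours on the left (red) and controls on the right (blue) of each panel; filled circles are the common form and open triangles the tissue form. The triangles of Cox6a2, Cox7a1 and Cox8b sit lower in tumours and those of Cox4i2 higher, while the circles overlap between the groups for Cox6a1, Cox7a2 and Cox8a.

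Of the testis forms, Cox7b2 and Cox8c were at the edge of detection and were not tested. Cox6b2 was tested, with 6.50, 6.48 and 3.38 CPM in tumours, against 4.89, 2.37 and 2.64 CPM in controls (0.73 ± 0.38, edgeR adjusted p = 0.161), while its partner Cox6b1, at 77.7, 107 and 88.1 CPM in tumours and 92.3, 55.2 and 49.2 CPM in controls, did not pass either (edgeR adjusted p = 0.171). The Cox6b2 share was 7.13%, 5.26% and 3.40% of Cox6b in tumours, against 4.63%, 3.79% and 4.69% in controls (exact two-sided permutation test, p = 0.5, adjusted 0.5). Cox7b2 had 0 reads in tumours and 18 in controls, at least 6.44-fold lower in tumours when the tumour group is set to 3 counts over its libraries. This bound covers counting error in the tumours only and takes the 18 control reads as exact. Its partner Cox7b had 42.4, 83.8 and 79.6 CPM in tumours, against 65.8, 35.2 and 30.6 CPM in controls, with an edgeR adjusted p = 0.173. Cox8c had 2 reads in tumours and 2 in controls, and Atp5l2, a pseudogene in the current annotation, had 2 and 1.

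The promoters of 2 muscle isoforms and their partners are shown because the muscle forms were called lower and their partners were not called. Each window runs from 250 bases before to 50 bases after the RefSeq start on GRCm38.p6, a later build than that of the table, and capitals mark the motif letters defined in the next paragraph. Cox7a1 is at chr7:30183921-30184220 (plus strand), Cox7a2 at chr9:79759804-79760103 (minus strand), Cox8b at chr7:140900397-140900696 (minus strand) and Cox8a at chr19:7217567-7217866 (minus strand).
Cox7a1: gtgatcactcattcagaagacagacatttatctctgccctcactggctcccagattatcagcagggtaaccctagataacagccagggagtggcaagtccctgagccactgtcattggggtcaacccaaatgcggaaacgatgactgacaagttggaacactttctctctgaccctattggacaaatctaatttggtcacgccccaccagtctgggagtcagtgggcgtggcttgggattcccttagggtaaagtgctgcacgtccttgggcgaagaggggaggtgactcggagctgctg
Cox7a2: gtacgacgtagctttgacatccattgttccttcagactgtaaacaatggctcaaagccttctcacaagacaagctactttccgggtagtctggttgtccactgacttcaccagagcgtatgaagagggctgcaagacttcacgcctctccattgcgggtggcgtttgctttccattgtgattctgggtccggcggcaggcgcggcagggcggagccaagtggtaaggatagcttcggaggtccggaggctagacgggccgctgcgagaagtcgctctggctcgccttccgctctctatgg
Cox8b: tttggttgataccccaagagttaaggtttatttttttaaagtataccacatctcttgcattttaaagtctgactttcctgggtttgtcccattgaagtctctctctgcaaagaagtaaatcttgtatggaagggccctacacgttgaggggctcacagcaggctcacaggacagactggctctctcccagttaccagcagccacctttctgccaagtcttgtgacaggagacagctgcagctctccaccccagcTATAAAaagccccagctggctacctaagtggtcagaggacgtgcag
Cox8a: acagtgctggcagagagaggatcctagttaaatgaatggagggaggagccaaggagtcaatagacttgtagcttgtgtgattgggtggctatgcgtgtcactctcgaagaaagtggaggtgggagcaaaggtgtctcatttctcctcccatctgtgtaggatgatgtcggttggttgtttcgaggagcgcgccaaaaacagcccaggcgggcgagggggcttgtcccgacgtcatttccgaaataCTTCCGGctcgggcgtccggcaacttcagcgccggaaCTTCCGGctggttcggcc
The Cox8b window held 2 CpG pairs and the letters of a TATA box, and the Cox7a1 window 7 CpG pairs and no motif. The TATA box letters of Cox8b begin at position 5 of the 50 bases after the RefSeq start, not before it. The windows of their partners held 19 CpG pairs (Cox8a, with the ETS letters in 2 places) and 20 CpG pairs (Cox7a2, no motif).

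RefSeq windows were matched for 68 of the 87 members, 74 windows in all. The motifs searched on both strands were those linked to promoters of respiratory chain genes: CCGGAAG for ETS factors such as GABP (the factor also called NRF2), TGCGCA for NRF1, AAGATGG for YY1, AAGGTCA for ERR receptors, and TATAAA for a TATA box. No matches to different motifs overlapped in the members' windows. Of the members' windows, 21.6% held the ETS letters, 24.3% the NRF1 letters, 16.2% the YY1 letters, 10.8% the ERR letters and 10.8% the TATA box letters. Over all 32851 windows of the table these shares were 8.86%, 7.76%, 6.34%, 4.72% and 13.6%. The median CpG count was 19 in members' windows and 7 in all windows. Among the 11 windows of members higher in tumours, 2 held the ETS, 1 the NRF1 and 2 the ERR letters. The YY1 letters were in 0 of these 11 windows and the TATA box letters in 0. Among the 60 windows of members not called, 14 held the ETS, 17 the NRF1 and 6 the ERR letters. The YY1 letters were in 12 of these 60 windows and the TATA box letters in 6. Sdhd, a called member whose window held matches to 3 of the motifs, and Atp5b, a called member whose window held none, are shown at chr9:50603800-50604099 (minus strand) and chr10:128083057-128083356 (plus strand).
Sdhd: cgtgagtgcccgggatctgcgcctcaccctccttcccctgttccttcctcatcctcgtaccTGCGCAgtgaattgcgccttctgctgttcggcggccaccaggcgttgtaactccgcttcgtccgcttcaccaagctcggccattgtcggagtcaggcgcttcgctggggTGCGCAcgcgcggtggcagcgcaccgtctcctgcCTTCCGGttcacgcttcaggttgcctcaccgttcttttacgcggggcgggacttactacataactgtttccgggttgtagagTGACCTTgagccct
Atp5b: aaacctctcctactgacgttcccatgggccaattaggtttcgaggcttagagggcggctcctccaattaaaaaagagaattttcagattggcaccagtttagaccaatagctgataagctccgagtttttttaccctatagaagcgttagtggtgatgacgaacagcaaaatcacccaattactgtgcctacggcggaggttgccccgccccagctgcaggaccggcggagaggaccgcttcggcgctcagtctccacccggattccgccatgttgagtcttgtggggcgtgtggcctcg
A match is a description of letters and not a bound site.

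Levels of many members followed the library as well as the group. Control replicate 1 was above both other controls in 56 of the 84 members (66.7%), where 29.9% of all genes tested showed this, and tumour replicate 1 was below both other tumours in 44 members (52.4%), where 39.9% of all genes did. By exon length, control replicate 1 was the highest control in 26 of 32 members of up to 1000 bases, where 39.1% of all genes of that length showed this, and in 30 of 52 longer ones, where 28.0% did. The median ratio of the short members to their 6-library mean was 0.902, 1.12 and 1.05 in tumours and 1.15, 0.824 and 0.746 in controls, and for the longer members it was 1.04, 1.18 and 1.11 in tumours and 0.974, 0.872 and 0.809 in controls. By this median ratio the groups were apart for the longer members and overlapped for the short ones. Gene by gene, all tumours lay above all controls for 17 of the 52 longer members and below for 1. Of the 32 short members, 4 lay above and 3 below. Of all 16553 longer genes tested, 4507 lay above and 5215 below, and of all 3448 short genes tested, 706 and 772. Over all genes tested, long and short, the shares were 26.1% above and 29.9% below. Reads of the mitochondrial chromosome took 21.8%, 26.0% and 25.2% in tumours and 26.7%, 18.8% and 22.7% in controls, again with control replicate 1 the highest and tumour replicate 1 the lowest tumour. Most of these reads were mitochondrial rRNA, at 20.8%, 24.6% and 23.8% of all reads in tumours and 25.3%, 17.6% and 22.0% in controls. The 13 subunit genes of the mitochondrial genome summed to 9569, 14622 and 14149 CPM in tumours and 13485, 10013 and 6322 CPM in controls. There control replicates 1 and 2 lay inside the tumour range. The 10 alveolar macrophage markers, of which 1 (Car4, lower) passed the edgeR test, summed to 320, 1998 and 1359 CPM in tumours and 1684, 764 and 435 CPM in controls. The 10 markers of alveolar type 2 cells summed to 28943, 65566 and 50369 CPM in tumours and 16701, 11018 and 10092 CPM in controls. In both of these lists, too, control replicate 1 was the highest control and tumour replicate 1 the lowest tumour. The part of these cells and of library quality in the results was not tested.

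**Figure D4:**
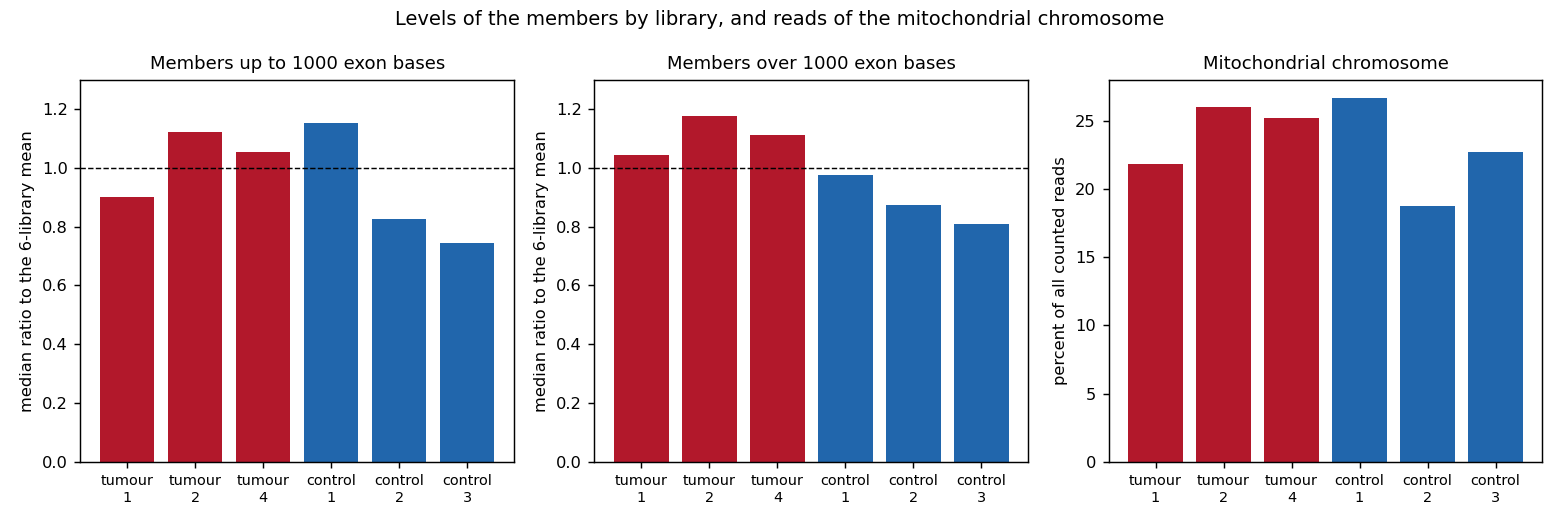
Median ratio of the members to their own 6-library mean, for 32 members of up to 1000 exon bases (left) and 52 longer members (middle), and the percent of reads from the mitochondrial chromosome (right, mostly rRNA), tumour libraries in red and then control libraries in blue. Control replicate 1 reaches 1.15 among short members, above every tumour, and 0.974 among longer ones, below every tumour.

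The count of called members moved with these libraries. Without tumour replicate 1, 25 members were higher and 3 lower; without control replicate 1, 17 and 3; and without both, a choice made after seeing the data, 38 and 3. Those 38 included all 15 of the full fit, and added Cycs, Sdhc, Cox4i1, Cox7a2, Cox8a and Ndufa4 among others. Over the 6 fits that each left out a library, 10 of the 15 higher members and 2 of the 3 lower ones (Cox8b and Cox7a1) were called every time. With scaling by library totals alone, which lowered the median of all genes to -0.10 from 0.01 on the log2 scale, 9 members were higher and 3 lower; Ndufb5, Ndufs3, Uqcrc2, Cox5a, Atp5a1 and Atp5o were lost. No called member changed its direction under any alternative. Leaving out the 17 tested members with over 20% of 32-base words in other genes gave 12 higher and 3 lower of 67.

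**Figure D5:**
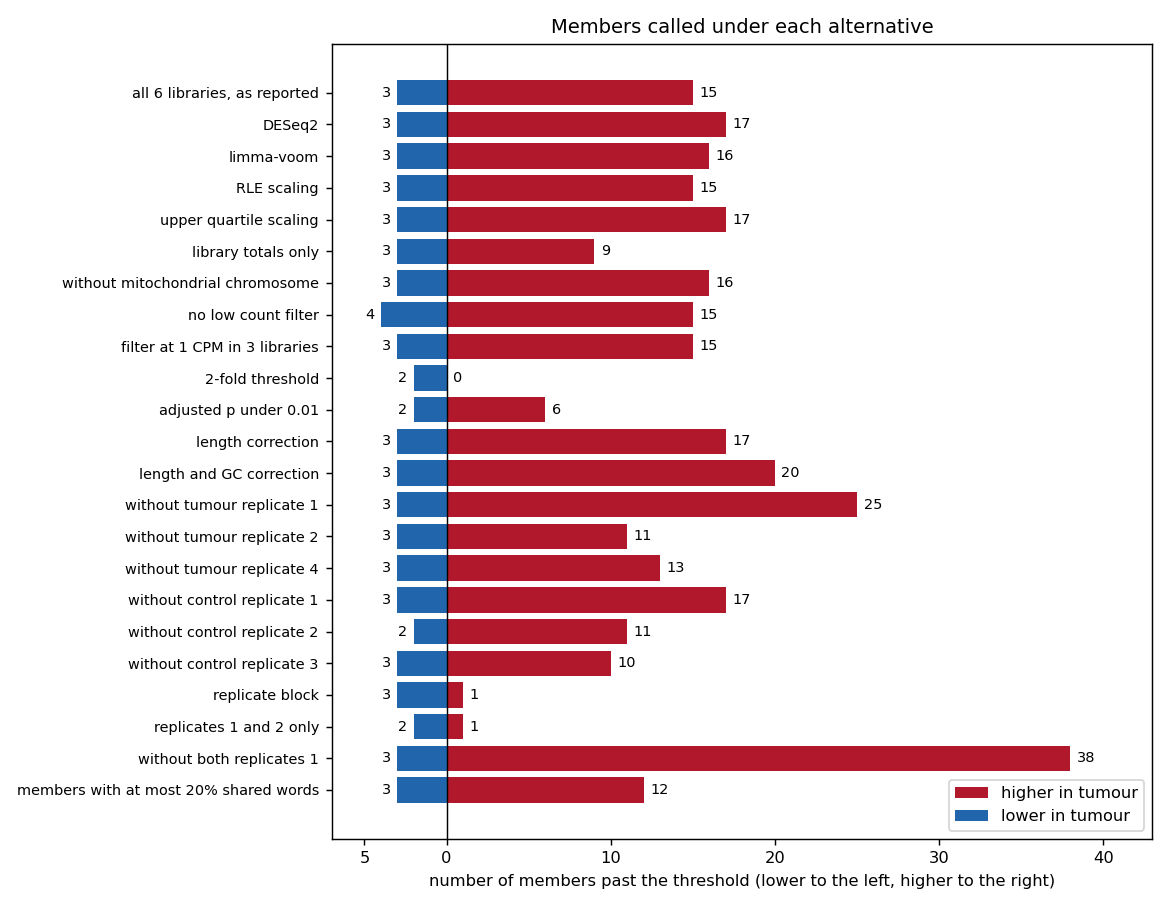
Number of members called higher (red, to the right) and lower (blue, to the left) in tumours with all 6 libraries and under each alternative. The higher count runs between 0 under a 2-fold threshold and 38 without both replicates 1, while the lower count stays between 2 and 4.

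Of the 13 subunits encoded in the mitochondrial genome 8 were tested, and 0 were called by edgeR, DESeq2 or limma-voom (0 with an unadjusted p under 0.05 in edgeR), with a median log2 fold change of 0.41. The most abundant, mt-Co1, the catalytic subunit of complex IV, had 4535, 6695 and 6456 CPM in tumours, against 4795, 4400 and 2406 CPM in controls (0.61 ± 0.32, edgeR adjusted p = 0.161). mt-Nd2, a complex I subunit, had 433, 748 and 659 CPM in tumours and 1400, 793 and 598 CPM in controls (-0.60 ± 0.34, edgeR adjusted p = 0.196). The ranges overlapped for both. mt-Co2, mt-Co3, mt-Atp6, mt-Atp8, mt-Nd3 and mt-Nd4l were listed at no more than 0.245 CPM in any library, and no level is drawn from those values.

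Of 9 accessory genes that the name rule leaves out, 8 were tested, with 4 higher (50%) and 1 lower (12.5%). Over all genes tested 18.1% were higher and 23.8% lower. Atpif1, the inhibitor of ATP synthase, had 61.0, 58.4 and 49.0 CPM in tumours, against 31.3, 24.1 and 22.4 CPM in controls (1.12 ± 0.18, edgeR adjusted p = 0.00135). Ndufab1, the acyl carrier protein of complex I, had 34.3, 26.3 and 29.97 CPM in tumours and 20.4, 18.2 and 17.5 CPM in controls (0.69 ± 0.16, edgeR adjusted p = 0.00908). Ndufa4l2, a paralogue of Ndufa4 known as a hypoxia-induced gene, moved the other way, with 1.08, 1.01 and 0.564 CPM in tumours, against 4.45, 3.34 and 4.45 CPM in controls (-2.20 ± 0.34, edgeR adjusted p = 0.00129). For all 3 the groups were apart. Ndufa4l2 is also a gene of pericytes and smooth muscle. Of the 11 markers of these cells 10 were lower and 1, Rgs5, was higher, as given above. The part of these cells in the Ndufa4l2 result was not tested.

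Assembly factors build the complexes without staying in them, and 6 of 40 entries tested (15.0%) were higher, where 18.1% of all genes tested were. Of 13 for complex I, 2 were higher and 1 (Ndufaf3) lower; of 6 for complexes II and III, 1 was higher; of 18 for complex IV, 2 were higher; and of 3 for ATP synthase, 1 was higher. Sco1, a copper chaperone of complex IV, had a log2 fold change of 0.64 ± 0.17 (edgeR adjusted p = 0.0172) and Fastkd2, a mitochondrial RNA-binding protein, one of 0.63 ± 0.20 (edgeR adjusted p = 0.0355). Atpaf2, which chaperones the alpha subunit of the ATP synthase, had one of 0.49 ± 0.17 (edgeR adjusted p = 0.0469), and Uqcc, a complex III assembly factor, one of 0.54 ± 0.16 (edgeR adjusted p = 0.0258). Uqcc is also among the accessory genes above and is counted as higher in both lists. The complex I factors listed as 2310030N02Rik and 4930455C21Rik had values of 0.89 and 0.90 (edgeR adjusted p of 0.0193 and 0.0176), and Tmem70 and Lyrm7 did not pass, at 0.29 and -0.89.

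Of 17 genes of mitochondrial content 9 were higher (52.9%), where 18.1% of all genes tested were, with a median log2 fold change of 0.69. Hspd1, the mitochondrial chaperonin, had 162, 154 and 164 CPM in tumours, against 58.3, 60.5 and 49.2 CPM in controls (1.51 ± 0.14, edgeR adjusted p = 0.000107), and Hspa9, the chaperone that drives protein import, had 262, 210 and 241 CPM in tumours, against 91.9, 110 and 91.3 CPM in controls (1.28 ± 0.16, edgeR adjusted p = 0.000404). Of 16 genes of the tricarboxylic acid cycle 8 were higher (50%), with a median of 0.45, among them citrate synthase Cs at 0.82 ± 0.14 (edgeR adjusted p = 0.00199) and Suclg1, a subunit of succinyl-CoA ligase, at 0.77 ± 0.14 (edgeR adjusted p = 0.00319). Cs is in both lists and is counted in each. DESeq2 called 1 content gene lower, and edgeR and limma-voom called 0 genes of either list lower. Whether the medians differ from those of the members was not tested.

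Of 18 regulators of mitochondrial biogenesis 7 were higher (38.9%, against 18.1% of all genes tested). Ppargc1a, the coactivator PGC-1 alpha, had 25.1, 22.6 and 24.0 CPM in tumours, against 7.03, 9.01 and 6.88 CPM in controls (1.65 ± 0.18, edgeR adjusted p = 0.000192), and Tfb1m, a mitochondrial rRNA methyltransferase, had a log2 fold change of 0.95 ± 0.22 (edgeR adjusted p = 0.00825). The genes for the factors whose motif letters were searched gave smaller values: Nrf1 had a log2 fold change of -0.10, Gabpa -0.07, Yy1 0.30 and Esrra 0.59, and these 4 did not pass (edgeR adjusted p of 0.678, 0.782, 0.18 and 0.0817). Gabpb1, a partner of GABPA, passed with a log2 fold change of 0.45 ± 0.13 (edgeR adjusted p = 0.0269). Ribosomal proteins, many of them short genes as well, were called higher for 31 of 83 cytosolic (37.3%) and 15 of 76 mitochondrial members (19.7%), with medians of 0.64 and 0.38. The mitochondrial share is near the 18.1% of all genes tested. Rpl5 and Rpl3 had log2 fold changes of 0.90 and 1.20, and Mrpl50 and Mrpl47 of 1.01 and 0.76, and all 4 passed (edgeR adjusted p of 0.00376, 0.00384, 0.00138 and 0.00483). Mrpl47 lies beside Ndufb5 and shares exon bases with it.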

How the data were processed

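RNA was sequenced in 3 libraries of urethane-induced lung tumour and 3 of normal lung. The authors deposited unnormalized read counts, with 1 row per gene name, and another column with exon bases. Per the file headers, the authors counted exon reads with featureCounts 1.6.5 and GENCODE vM1 annotation (mm9 coordinates), counting a read for each name it overlaps, with no strand setting. Overlapping or antisense names may hold the same reads. STAR, limma, edgeR, R 3.6.0 and the builds GRCm38 and mm9 are named in the submitters' processing notes, without a version of the aligner.

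All 33924 names entered edgeR 4.0.16 (R 4.3.3): filterByExpr with a minimum count of 10, TMM scaling, quasi-likelihood F test with group as the only term, Benjamini-Hochberg adjustment over 20001 genes, threshold 0.05. Standard errors come from the F statistic. The fit was tested on simulated counts. With 38996532 to 62336537 reads per library, the 3 counts used as a floor equal 0.0481 to 0.0769 CPM, a limit of counting error only. For shared sequence, 32-base words of the longest GENCODE M21 transcript were looked up in all other genes. Alternatives were DESeq2 1.42.0, limma-voom (limma 3.58.1), 3 other scalings, the filter, a test against 2-fold, a threshold of 0.01, length and GC corrections (mgcv 1.9.3), each library left out and a replicate block. Fits on replicates 1 and 2 only and without both replicates 1, and a count over members with little shared sequence, were added after seeing the data.

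The members and lists were chosen with earlier results of these data known. Genes were named by a rule: isoform sets, the 3 smallest p per complex, members past 1 log2 unit or against the common direction, Ndufa4l2, and the 2 smallest p of each other list. Further members and list genes, such as Atp5a1, Atp5c1, Cox5a and Atp5k, were chosen after their values were seen.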

Additional observations from a re-analysis of the deposited data

How the results depend on the processing

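The count of 15 members higher in tumours moved most. It was 9 with library totals only, 0 against a 2-fold threshold (0 also at an unadjusted p under 0.05), 6 at an adjusted p under 0.01, 17 with DESeq2, 16 with limma-voom, 17 with a length correction, 20 with length and GC corrected, 10 to 25 with 1 library left out (25 without tumour replicate 1) and 38 without both replicates 1. The 3 lower members numbered 2 to 4 throughout. Over all genes, 3627 higher and 4770 lower became 1056 and 2909 against a 2-fold threshold, and 2073 were higher at 0.01; leaving out 1 library gave 2536 to 4210 higher and 3870 to 5226 lower. Deviations of same-numbered libraries from their group means correlated at -0.18 for replicate 1 and -0.0086 for replicate 2. With 3 libraries per group, these values cannot tell whether libraries of the same number share a batch. A replicate block on replicates 1 and 2 called 1 member higher (Cyc1) and 3 lower, and 1073 genes higher and 2498 lower; the same 4 libraries without the block called 1 and 2 members, and 1673 and 3121 genes. Uncalled values that changed sign were Atp5g1 (-0.057 with totals only, -0.041 without tumour replicate 2 to 0.15 without tumour replicate 1, -0.00035 under the block), Cox6a1 (-0.28 without control replicate 3 to 0.021 without control replicate 1, 0.18 without both replicates 1), mt-Nd2 (0.058 without both replicates 1) and the Cox6b2 share (-0.0393 points without tumour replicate 1 to 1.82 without tumour replicate 4). The cause was not tested. Changes of about 2-fold or less rest on 3 libraries per group, and few reads limit Cox8b, Cox7b2 and Cox8c.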

Other observations

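Summed over all members, tumours had 3962, 4507 and 4193 CPM and controls 3530, 3184 and 2722 CPM, with every tumour above every control. Without Atp5a1 and Atp5b, which both passed the test and were left out after their values were seen, the sums were 3131.5, 3667.8 and 3483.7 CPM in tumours and 3136.5, 2612.5 and 2325.1 CPM in controls, and the groups overlapped. The sums of complexes I and IV overlapped between the groups, at 992 to 1166 and 618 to 782 CPM in tumours and 802 to 1039 and 460 to 735 CPM in controls, with control replicate 1 the highest control for both. Complex II had 247 to 330 CPM in tumours and 220 to 273 CPM in controls. Per exon length, the members with the highest tumour means were Cox6b1 at 180.1 CPM per kb in tumours and 129.8 CPM per kb in controls, and Ndufa4 at 177 CPM per kb in tumours and 126 CPM per kb in controls.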
